A study of Homo sapiens with 12 samples.

Results

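EGFR and 9 further genes of chromosome 7 were followed across 12 messenger RNA libraries of MDA-MB-468, an established line of triple-negative breast cancer. The 10 genes were found by symbol among the 58735 symbols of the count tables, and all 10 passed the filter on low counts. They are EGFR, SEC61G, VOPP1, LANCL2, FKBP9P1, FKBP9, CCT6A, CHCHD2, SUMF2 and NIPSNAP2. EGFR was chosen by its measured level, which is high in this line, so that level is given as a description without a test. The others were listed as its neighbours, together with the FKBP9 pair, in which FKBP9P1 is a pseudogene copy of FKBP9.

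Each of 4 groups had 3 libraries, named A, B and C, all from unmodified (WT) cells of the same line. Docetaxel, a taxane that stabilises microtubules, was given at 10 nM for 8 h or for 24 h in 10 cm plates. The combination was 5 µM tazemetostat, an inhibitor of the histone methyltransferase EZH2, with 5 µM ipatasertib, an inhibitor of the kinase AKT, for 24 h in 6 cm plates and medium with 2% FBS. Those cells had been passaged in tazemetostat over the 5 days before. Cells kept in DMSO over the same days are also described, without a statement that they are the DMSO libraries. The vehicle DMSO served for comparison. Its hours, plate and serum are not stated, so differences from DMSO and differences of culture cannot be told apart. Plate size also differed between the combination and docetaxel, and 2% FBS is stated for the combination alone. The same limit holds between those treatments. No library had either inhibitor alone, and nothing in the labels says that A, B and C were separate cultures, so the tests weigh differences against library-to-library spread that could be partly technical.

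EGFR encodes a receptor tyrosine kinase. Binding of a ligand such as EGF makes it pair with itself or another ERBB receptor and signal through adaptors to RAS, the MAP kinases and PI3 kinase. The gene is often gained in copy number in tumours, and neighbouring genes are then frequently gained with it. MDA-MB-468 is known for EGFR amplification and very high EGFR protein. Neither DNA copy number nor protein was measured here.

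Of the 10 genes, 9 start within 2 Mb of the EGFR start on chromosome 7 (GRCh38, GENCODE release 29). EGFR spans 55019021 to 55211628 on the plus strand. On its left lies SEC61G (54752250 to 54759974, minus strand). On its right come LANCL2 (55365448 to 55433742, plus), VOPP1 (55436056 to 55572988, minus), FKBP9P1 (55681074 to 55713252, minus) and NIPSNAP2 (55951793 to 56000181, plus). CCT6A (56051630 to 56063989, plus), SUMF2 (56064002 to 56080670, plus) and CHCHD2 (56101569 to 56106576, minus) follow. FKBP9 (32957404 to 33006931, plus) lies 22.1 Mb from EGFR and is no neighbour of it.

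The sequences that matter most here are those of the FKBP9 pair, because a read from such similar genes can match both. The FKBP9P1-201 transcript of 1491 bases aligned without a gap to coding sequence of FKBP9-201, with 1471 identical bases and 20 differences (98.7% identity). The stretch of 120 bases below was chosen as the one within a single exon with the most differences. Capitals mark the 3 bases that differ (GENCODE transcripts, GRCh38, chr7:32974632-32974751 plus strand for FKBP9 and chr7:55713116-55713235 minus strand for FKBP9P1).
FKBP9: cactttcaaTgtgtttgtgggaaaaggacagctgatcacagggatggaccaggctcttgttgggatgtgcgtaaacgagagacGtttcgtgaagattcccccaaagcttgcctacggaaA
FKBP9P1: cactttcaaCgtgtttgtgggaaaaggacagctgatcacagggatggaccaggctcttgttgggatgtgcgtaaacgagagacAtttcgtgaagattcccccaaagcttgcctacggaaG
Over both annotated FKBP9P1 transcripts, 40.2% of the distinct stretches of 50 bases also occur in an FKBP9 transcript, as do 15.6% of those of 100 bases and 6.71% of those of 150 bases. Nothing used here states how long the reads were. A longer FKBP9P1 transcript, FKBP9P1-202, aligned over 2066 of its 2451 bases, with 98.4% identity. How the counting treated reads that match both genes is not given in the sources used here.

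Promoter sequence from RefSeq was matched for 7 of the 10 genes. The 250 bases before the start used there are shown for EGFR and SEC61G, neighbouring genes whose levels went in opposite directions under docetaxel. That start can differ from the end of the GENCODE span. The windows of SEC61G, VOPP1, SUMF2 and NIPSNAP2 lie inside the spans given above. Capitals mark the GC box, GGGCGG or CCGCCC on either strand, known as a site for SP1 (GRCh38.p14, chr7:55018767-55019016 plus strand for EGFR and chr7:54759212-54759461 minus strand for SEC61G).
EGFR: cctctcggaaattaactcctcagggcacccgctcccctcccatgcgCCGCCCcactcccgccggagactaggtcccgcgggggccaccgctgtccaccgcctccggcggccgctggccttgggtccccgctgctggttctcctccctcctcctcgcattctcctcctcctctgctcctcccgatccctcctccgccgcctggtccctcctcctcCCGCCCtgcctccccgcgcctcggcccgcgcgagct
SEC61G: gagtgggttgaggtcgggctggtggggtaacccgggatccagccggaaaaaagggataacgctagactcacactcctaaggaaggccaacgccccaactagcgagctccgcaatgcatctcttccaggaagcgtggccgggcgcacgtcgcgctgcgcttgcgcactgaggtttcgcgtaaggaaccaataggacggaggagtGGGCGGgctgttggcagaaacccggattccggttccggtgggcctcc
EGFR's window held 2 GC boxes and SEC61G's held 1. A GC box was found in 5 of the 7 members' windows and in 42.6% of the 35116 windows of that length in the table. The TATA box, TATAAA or TTTATA, was found in none of the 7 and in 10.7% of all windows. G and C made up 73.6% of EGFR's window and 62.4% of SEC61G's, beside a median of 58% over all windows.

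Total counts were 29820617 to 45807059 per library, and 17780 genes were tested, with a biological coefficient of variation of 5.59%. Values are CPM, library-scaled counts after TMM adjustment, and log2 fold changes stand with ± an approximate SE. A gene was called when edgeR's quasi-likelihood test gave it a p under 0.05 after Benjamini-Hochberg adjustment over all 17780 genes. Markers of epithelial carcinoma were present, with EPCAM, CDH1 and 4 keratins summing to 12081 to 13422 CPM after 8 h of docetaxel, 9926 to 10278 after 24 h and 7466 to 8453 in the combination, against 9442 to 9643 in DMSO. Of the receptors that define other subtypes, PGR was at most 0.0217 CPM on average in any group, ESR1 averaged 1.84 CPM at 8 h, 1.22 after 24 h and 0.842 in the combination, against 1.86 in DMSO, and ERBB2 is described with the ERBB receptors. The 5 immune markers summed to 2.10 to 2.42 CPM after 8 h of docetaxel, 2.34 to 2.46 after 24 h and 15.3 to 15.8 in the combination, against 2.66 to 2.95 in DMSO. Almost all of this was CSF1R, with LYZ at 0 in the combination and CD3E at 0 in the other 3 groups. The 5 endothelial markers summed to 11.9 to 17.8 CPM at 8 h, 13.9 to 15.5 after 24 h and 39.0 to 40.3 in the combination, against 21.8 to 24.4 in DMSO, most of it KDR. The 6 fibroblast markers summed to 12.3 to 13.6 CPM at 8 h, 16.5 to 19.6 after 24 h and 22.2 to 23.3 in the combination, against 21.1 to 22.4 in DMSO, with DCN and LUM at 0 outside the combination. The part of these markers in the results below was not tested. Genes of the mitochondrial genome took 8.199% to 8.997% of counts after 8 h of docetaxel, 5.00% to 7.53% after 24 h and 7.71% to 9.30% in the combination, against 4.001% to 4.477% in DMSO. With these genes left out of the fit, every call of a member against DMSO kept its direction and its side of the threshold. In bulk RNA, fewer cells of a type and less RNA per cell cannot be told apart.

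Expressed per kb of exon, EGFR and its neighbours stood near the top of chromosome 7, a description without a test because EGFR was listed for its level. In DMSO libraries CHCHD2 had 1651 ± 30.3 CPM per kb, SEC61G 1046 ± 56.9, CCT6A 480.5 ± 4.01, EGFR 306 ± 20.2 and LANCL2 218 ± 2.46 (SD, n = 3 each). SUMF2 (129 ± 0.327), VOPP1 (111 ± 2.94), NIPSNAP2 (53.3 ± 0.806) and FKBP9 (27.8 ± 0.915) followed, and FKBP9P1 was last with 0.624 ± 0.0745 CPM per kb. Neighbours in this order were each apart by more than their SDs. Among the 662 tested protein-coding genes of chromosome 7, CHCHD2 ranked 2, SEC61G 3, CCT6A 5, EGFR 7 and LANCL2 10 by this level. SUMF2 ranked 16, VOPP1 18, NIPSNAP2 44 and the distant FKBP9 87. The 14 tested protein-coding genes within 2 Mb of EGFR had a median of 120 CPM per kb in DMSO, against 4.55 for the 648 others on the chromosome and 4.51 for all 13927 tested protein-coding genes. These 14 share a location, and levels of single genes vary widely within the window, between 0.239 and 1651 CPM per kb. EGFR alone took 0.242% to 0.327% of all counts after 8 h of docetaxel, 0.256% to 0.283% after 24 h and 0.454% to 0.541% in the combination, against 0.379% to 0.423% in DMSO.

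**Figure D1:**
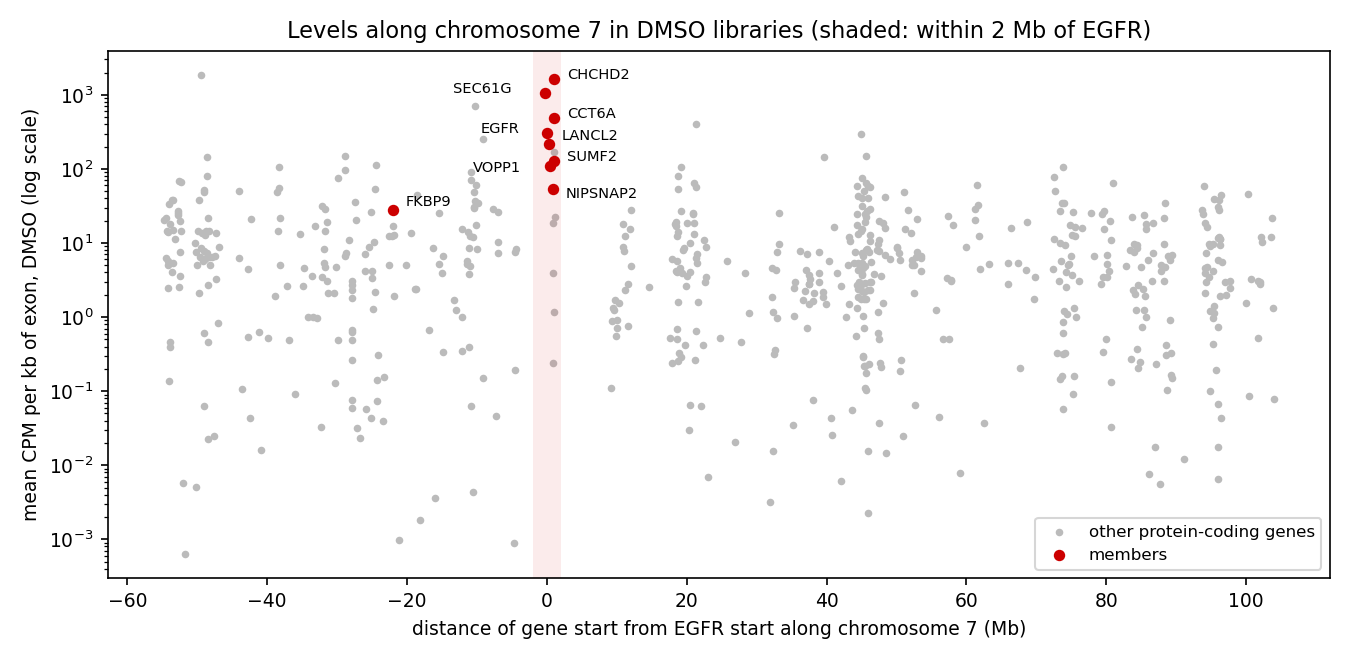
Mean CPM per kb of exon over the 3 DMSO libraries (log axis) for the 662 tested protein-coding genes of chromosome 7, against the distance of each gene's start from that of EGFR in Mb, with members in red and the 2 Mb window shaded. CHCHD2, SEC61G, CCT6A and EGFR sit near the top, while the distant FKBP9 lies among other genes at 27.8 CPM per kb.

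The order shifted with treatment. At 8 h of docetaxel EGFR (247 ± 32.6 CPM per kb) and LANCL2 (249 ± 3.47) differed by less than the SD of EGFR, as they did at 24 h (211 ± 10.5 and 209 ± 4.34). In the combination FKBP9P1 reached 334 ± 4.29 CPM per kb, beside 391 ± 29.1 for EGFR and 353 ± 13.3 for CCT6A. VOPP1 stood at 219 ± 8.05 there and LANCL2 at 167 ± 5.80, the reverse of their order in DMSO.

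EGFR itself moved in opposite directions under the 2 kinds of treatment. Libraries A, B and C had 2641, 3435 and 3205 CPM after 8 h of docetaxel, 2781, 2625 and 2520 after 24 h and 4603, 5301 and 4770 in the combination, against 3617, 4109 and 3756 in DMSO. Every docetaxel library was below, and every combination library above, all DMSO libraries. The log2 fold change against DMSO was -0.31 ± 0.08 at 8 h (adjusted p = 0.00214 by edgeR), -0.53 ± 0.08 at 24 h (adjusted p = 8.44e-06) and 0.35 ± 0.08 in the combination (adjusted p = 0.000364). Against docetaxel at 24 h, EGFR was higher in the combination by 0.89 ± 0.08 on the log2 scale (adjusted p = 1e-09 by edgeR).

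**Figure D2:**
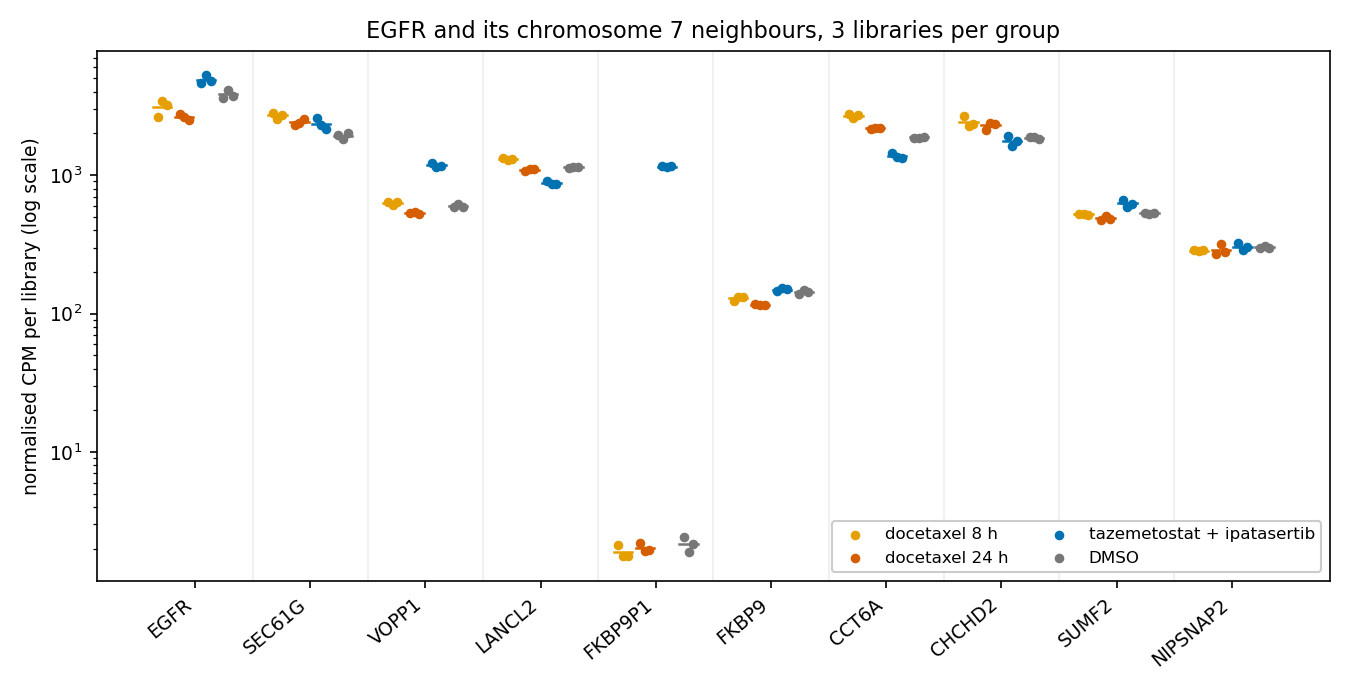
TMM-normalised CPM (log axis) of the 10 genes, with 1 point per library and a bar at the mean of 3 libraries, for docetaxel at 8 h and 24 h, the combination and DMSO. FKBP9P1 stands at 1137 to 1164 CPM in the combination and near 2 CPM elsewhere, while each other gene varies far less. VOPP1, for example, averages 534 CPM after 24 h of docetaxel and 1176 in the combination.

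At 8 h of docetaxel 4 of the 10 genes rose and 2 fell, where 22.5% of all tested genes were called higher and 24.8% lower. SEC61G, the small gamma subunit of the SEC61 channel through which proteins enter the endoplasmic reticulum, had 2820, 2543 and 2735 CPM in libraries A, B and C, against 1942, 1816 and 2023 in DMSO. Its log2 fold change was 0.49 ± 0.07, with every docetaxel library above every DMSO library. CCT6A, a subunit of the TRiC chaperonin that folds actin and tubulin, had 2757, 2589 and 2728 CPM against 1866, 1865 and 1892 in DMSO, a change of 0.52 ± 0.05. CHCHD2, a mitochondrial protein of the intermembrane space, was also higher, with 2659, 2266 and 2352 CPM against 1892, 1884 and 1829 in DMSO (0.38 ± 0.07). LANCL2, a member of the lanthionine synthetase C-like family, rose by 0.19 ± 0.05 to 1303 ± 18.2 CPM, against 1141 ± 12.9 in DMSO. Scaled by library totals instead of TMM, its value was 0.04 (adjusted p = 0.449 by edgeR). The 2 genes that fell were EGFR and FKBP9, a peptidyl-prolyl isomerase of the endoplasmic reticulum. FKBP9 had 123, 132 and 132 CPM, against 139, 148 and 144 in DMSO (-0.16 ± 0.05). The call of FKBP9 was lost on leaving out DMSO library B (-0.11, adjusted p = 0.106 by edgeR), DMSO library C (-0.13, 0.0657) or docetaxel library A (-0.12, 0.0516). VOPP1 (0.08 ± 0.05), SUMF2 (-0.02 ± 0.05), NIPSNAP2 (-0.08 ± 0.06) and FKBP9P1 (-0.20 ± 0.13) were not called.

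After 24 h of docetaxel 3 genes rose and 3 fell, beside 20.2% of tested genes higher and 22.7% lower. The same 3 genes with the largest rises at 8 h were the ones called higher: SEC61G with 2319, 2369 and 2535 CPM (0.32 ± 0.07), CHCHD2 with 2125, 2381 and 2343 CPM (0.29 ± 0.07) and CCT6A with 2158, 2181 and 2200 CPM (0.22 ± 0.05). In each of them all docetaxel libraries lay above all DMSO libraries given above, a separation not counted over all tested genes. Lower were EGFR, FKBP9 with 118, 116 and 114 CPM (-0.30 ± 0.05), and VOPP1, a protein of late endosomes and lysosomes. VOPP1 had 529, 546 and 527 CPM against 587, 614 and 586 in DMSO (-0.16 ± 0.05). Without DMSO library B, VOPP1 was at -0.13 (adjusted p = 0.0764 by edgeR) and no longer called. LANCL2 (-0.06 ± 0.05), SUMF2 (-0.11 ± 0.05), NIPSNAP2 (-0.06 ± 0.06) and FKBP9P1 (-0.11 ± 0.12) did not pass the test. SUMF2 had an adjusted p of 0.063 by edgeR and between 0.0158 and 0.179 over the alternatives.

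The docetaxel times were also compared with each other. At 24 h, 5 of the 10 genes were lower than at 8 h and 0 were higher, where 18.3% of tested genes were called lower and 16.6% higher. CCT6A changed by -0.30 ± 0.05, LANCL2 by -0.25 ± 0.05 (1067, 1101 and 1110 CPM at 24 h, against 1319, 1284 and 1308 at 8 h) and VOPP1 by -0.24 ± 0.05. For these 3 genes, and for FKBP9 (-0.15 ± 0.05), no library of the 24 h group reached any of the 8 h group. How many of all tested genes separated in this way was not counted, so nothing is read from it. EGFR was lower by -0.23 ± 0.08 (adjusted p = 0.0249 by edgeR), yet its libraries overlapped, since 8 h library A (2641 CPM) lay between those of 24 h. That call was lost on leaving out 8 h library B (-0.15), 8 h library C (-0.20), 24 h library B (-0.22) or 24 h library C (-0.20), with edgeR adjusted p-values of 0.0604 to 0.148. FKBP9 lost its call without 8 h library B, 8 h library C or 24 h library C (adjusted p = 0.0509 to 0.0737 by edgeR). Leaving out 8 h library C left 3 genes called. SEC61G (-0.17 ± 0.07) missed the threshold with an adjusted p of 0.0552 by edgeR, and CHCHD2 (-0.09 ± 0.07), SUMF2 (-0.09 ± 0.05) and NIPSNAP2 (0.02 ± 0.06) did too. Scaling matters for this comparison and for 8 h against DMSO: with library totals the median log2 fold change of all genes was -0.18 at 8 h, against -0.02 with TMM factors, and 0.14 between the times, against 0.01. With library totals EGFR (-0.10) and FKBP9 (-0.02) were not called lower at 24 h than at 8 h and NIPSNAP2 was called higher (0.15, adjusted p = 0.0297 by edgeR), so 3 members were lower and 1 higher. Calls at 8 h then split into 2288 higher and 6782 lower, in place of 3994 and 4415, and those between the times into 5387 higher and 1659 lower, in place of 2947 and 3261.

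In the combination 4 of the 9 genes other than FKBP9P1 rose and 2 fell, beside 31.4% of tested genes higher and 31.4% lower. VOPP1 had 1222, 1137 and 1168 CPM, against 587, 614 and 586 in DMSO, a rise of 0.98 ± 0.05 on the log2 scale (adjusted p = 3.24e-14 by edgeR). SEC61G had 2606, 2309 and 2136 CPM, all above the DMSO libraries (0.29 ± 0.07). SUMF2, an endoplasmic reticulum paralogue of the enzyme that activates sulfatases, had 658, 593 and 621 CPM, against 529, 527 and 530.0 in DMSO (0.24 ± 0.05). EGFR was the other that rose. LANCL2 fell to 910, 858 and 856 CPM, against 1129, 1154 and 1139 in DMSO (-0.38 ± 0.05). CCT6A fell to 1435, 1357 and 1336 CPM (-0.45 ± 0.05), with no library near the 1865 to 1892 CPM of DMSO. LANCL2 and VOPP1, whose annotated ends lie close together on opposite strands, thus differed in direction. FKBP9 (149 ± 4.34 CPM, against 144 ± 4.73 in DMSO), CHCHD2 (1767 ± 153 against 1869 ± 34.3) and NIPSNAP2 (304 ± 16.6 against 301 ± 4.55) were not called. NIPSNAP2, a mitochondrial protein that marks damaged mitochondria for removal, was called in none of the 5 comparisons by edgeR, and its groups lay between 285 and 304 CPM on average.

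The 24 h treatments were set against each other as well, although plate size and earlier passage in tazemetostat also differed between them. Treatment and culture cannot be told apart here. Of the 9 genes other than FKBP9P1, the combination exceeded docetaxel at 24 h for 4 and was below it for 3, beside 32.1% of tested genes higher and 31.7% lower. VOPP1 (1.14 ± 0.05), EGFR, FKBP9 (0.36 ± 0.05), and SUMF2 (0.35 ± 0.05) were higher. Lower were CCT6A (-0.66 ± 0.05), CHCHD2 (-0.37 ± 0.07) and LANCL2 (-0.32 ± 0.05). SEC61G (-0.03 ± 0.07) and NIPSNAP2 (0.07 ± 0.06) did not pass the test. For each of the 7 genes called, the 3 combination libraries were all on the same side of the 3 docetaxel libraries. How many of all tested genes separated in CPM was not counted for any comparison, so nothing particular to the members is read from this. Comparisons with DMSO share the same DMSO libraries and are therefore not independent of one another.

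FKBP9P1 showed the widest range of the 10 genes. Its libraries held 72, 57 and 50 reads after 8 h of docetaxel, 73, 63 and 91 after 24 h and 37493, 35119 and 35628 in the combination, against 105, 60 and 73 in DMSO. In CPM that was 1160, 1137 and 1164 in the combination, against 2.42, 1.90 and 2.16 in DMSO, so the groups were far apart. The fitted difference was 9.04 ± 0.08 on the log2 scale, a ratio of 528. Since the pair was listed with earlier results of these data known, this difference is given as a description, with no test. FKBP9, from which the copy derives, had 4668, 4724 and 4601 reads in the combination, against 6019, 4668 and 4874 in DMSO, and was not called. Of all reads given to either gene, FKBP9P1 held 88.5% ± 0.393 in the combination and 1.49% ± 0.223 in DMSO (SD, n = 3 each). At 8 h of docetaxel its share was 1.45% ± 0.218 and at 24 h 1.72% ± 0.0957. An exact two-sided permutation test of the docetaxel shares against DMSO gave p = 0.9 at 8 h and p = 0.3 at 24 h (0.9 and 0.45 after adjustment over 3 comparisons), where 3 against 3 cannot go below 0.10. Had the reads of both genes been counted together, the sum would have risen by 3.16 in the combination on the log2 scale, while FKBP9 alone stood at 0.06 ± 0.05.

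Between the end of VOPP1 and the start of PSPHP1 lie 192 kb with 12 symbols of the count table. All are pseudogenes, noncoding RNAs or small RNAs. Of the 12, 9 had more reads in the combination than in DMSO, among them AC099681.2 with only 2 reads against 0. How many of all symbols did so was not counted, so nothing is read from that number. Besides FKBP9P1, the stretch held 101 reads after 8 h of docetaxel, 98 after 24 h and 891 in the combination, against 90 in DMSO. AC091812.1, an unprocessed pseudogene on the same strand 2.58 kb beyond the annotated end of FKBP9P1, had 158, 202 and 186 reads in the combination, against 2, 0 and 1 in DMSO. The ratio of their summed reads, scaled for library size, was 212 with an exact 95% interval of 71.99 to 1029, which covers counting error only. TUBBP6, a tubulin pseudogene on the opposite strand, had 23, 12 and 32 reads against 0, 1 and 0, a ratio of 77.9 (13.5 to 3120). Among those at 0 in all 9 libraries outside the combination, RNU6-389P, which lies within FKBP9P1 on the other strand, had 5, 17 and 20 reads in the combination. It was at least 15.8-fold higher than a floor of 3 reads over the DMSO group. CDC42P2 (9 reads) and CICP11 (7 reads) were at least 3.39-fold and 2.63-fold higher by that floor. AC091812.3 had 116 reads in the combination and 37 in DMSO, AC091812.2 had 92 and 35, and SUMO2P3 had 6 reads in the combination and 9 in DMSO. The genes of this stretch outside FKBP9P1 were singled out after their values were seen, so these reads and ratios are a description with no test. PSPHP1, at its far end, was at 51.3 CPM in the combination and 50.5 in DMSO (0.02 ± 0.07, not called).

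**Figure D3:**
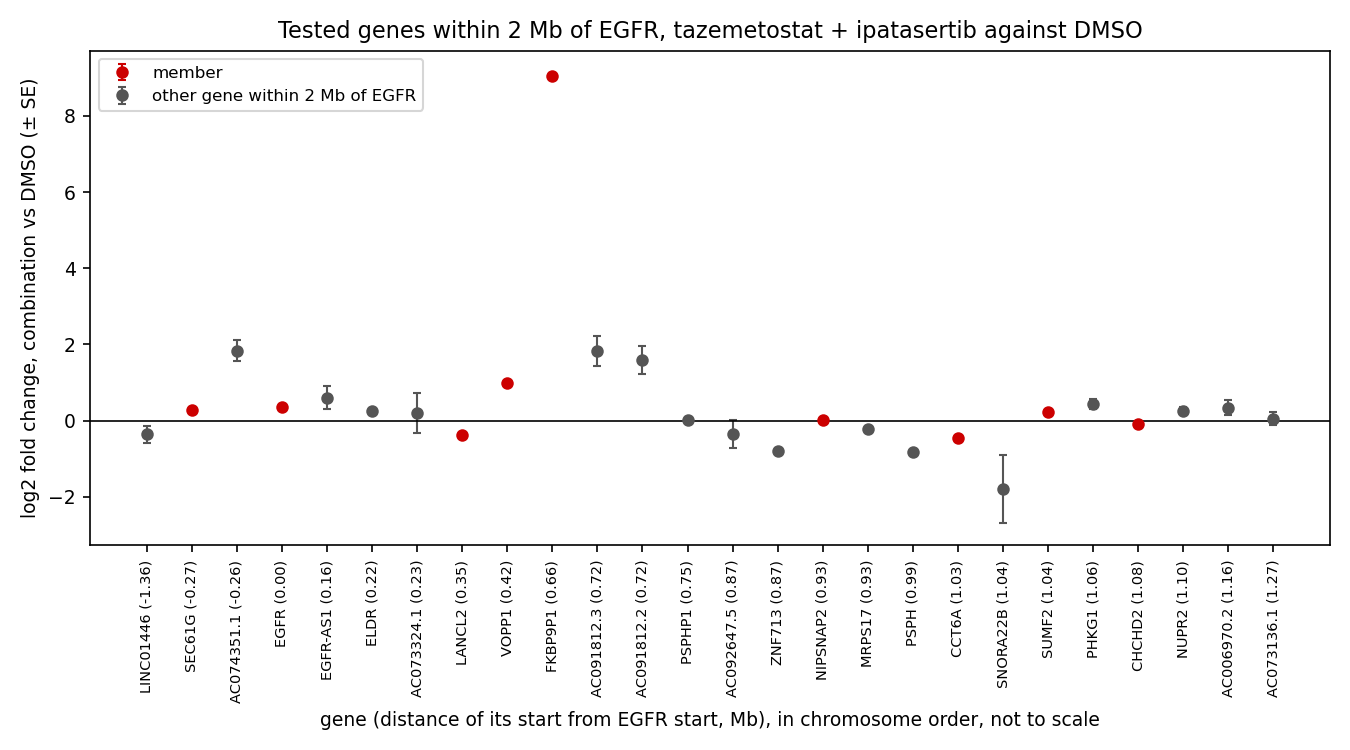
Log2 fold change with its SE of the 26 tested genes within 2 Mb of EGFR with more than 3 reads over the DMSO libraries, the combination against DMSO, in chromosome order, with members in red. FKBP9P1 stands at 9.04, VOPP1 at 0.98 and PSPHP1 at 0.02.

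Over the whole window of 2 Mb on each side, 100 symbols were in the table, 54 had any read and 28 were tested, of which 19 are not members. Of those 19, 5 were called higher and 3 lower after 8 h of docetaxel, 6 and 2 after 24 h, and 8 and 3 in the combination. The 8 include AC091812.1 and TUBBP6, which passed the filter on low counts through the combination libraries alone, and without them 6 of 17 were higher. Among all tested genes 22.5% were higher and 24.8% lower at 8 h, 20.2% and 22.7% after 24 h, and 31.4% each way in the combination, and nothing particular to the window is read from its counts. Among those of at least 5 CPM in a group, PSPH, the phosphatase of the last step of serine synthesis, had 331 CPM after 8 h of docetaxel, 480 after 24 h and 266 in the combination, against 469 in DMSO. It fell by 0.50 ± 0.05 at 8 h and by 0.82 ± 0.05 in the combination and was not called at 24 h (0.04 ± 0.05). PSPHP1 is named as a pseudogene of PSPH. How many reads could match both was not measured, so their counts are less certain. ZNF713, a zinc finger protein, fell in all 3 comparisons with DMSO (-0.31 ± 0.07, -0.31 ± 0.07 and -0.80 ± 0.07 in the order 8 h, 24 h, combination). MRPS17, a protein of the small mitochondrial ribosomal subunit, rose at 8 h (0.15 ± 0.06), was not called at 24 h (0.09 ± 0.06) and fell in the combination (-0.21 ± 0.06). NUPR2 (0.26 ± 0.10, 0.36 ± 0.10 and 0.27 ± 0.10 in the same order) and ELDR, a noncoding RNA just beyond EGFR (0.52 ± 0.08, 0.33 ± 0.08 and 0.24 ± 0.09), rose in all 3. EGFR and ELDR thus went opposite ways under docetaxel. PSPHP1 rose under docetaxel (0.22 ± 0.07 at 8 h and 0.33 ± 0.07 at 24 h).

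Some members overlap other genes, and whether the libraries kept the strand is not stated. EGFR-AS1, antisense within EGFR, held 163 reads after 8 h of docetaxel, 286 after 24 h and 198 in the combination, against 151 in DMSO, beside at least 290449 for EGFR in each group. PHKG1 overlaps the end of SUMF2 on the opposite strand with at most 512 reads in a group. MRPS17 lies inside NIPSNAP2 on the same strand and held 3278 to 4853 reads a group, beside 26880 to 32740 for NIPSNAP2, so that these counts are less certain. Pseudogene copies of CCT6A (4 symbols) and CHCHD2 (10 symbols) took at most 0.828% and 0.116% of the reads of gene and copies together.

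Ratios within a library do not depend on scaling between libraries, so each gene was also divided by EGFR. The ratios to EGFR were above those of DMSO for most genes under docetaxel. Relative to EGFR, CCT6A was higher by 0.83 at 8 h and 0.75 at 24 h on the log2 scale, SEC61G by 0.80 and 0.86, and CHCHD2 by 0.69 and 0.82. All 9 genes had every 24 h library above every DMSO library in this ratio, and 7 of 9 did at 8 h, the exceptions being FKBP9P1 and NIPSNAP2. Among 17694 tested genes with an annotated position, EGFR left out, 72.3% had ratios without overlap above DMSO at 24 h and 1.8% below, and 44.2% above at 8 h and 7.34% below, EGFR itself being lower at both times. In the combination LANCL2 (-0.74), CCT6A (-0.80), CHCHD2 (-0.44), NIPSNAP2 (-0.34) and FKBP9 (-0.30) had ratios to EGFR below DMSO in every library, while those of VOPP1 (0.63) and FKBP9P1 (8.72) were above. SEC61G (-0.07) and SUMF2 (-0.12) overlapped with DMSO. Of the same genes 50.7% lay below DMSO in the combination and 16.3% above. The ratio of FKBP9P1 in the combination is a description with no test, because the pair was listed with earlier results known. Each other ratio without overlap had p = 0.1 in the exact two-sided permutation test. That is the smallest that 3 against 3 allows, so no ratio could reach 0.05. After adjustment over 9 genes, FKBP9P1 included, these p-values were 0.129 at 8 h, 0.1 after 24 h and 0.129 in the combination.

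The pattern of EGFR over the 12 libraries was closest to that of ATP2B4, a plasma membrane calcium pump on chromosome 1. Likeness was measured as the root mean square difference of centred log2 CPM over 9450 protein-coding genes whose mean was 10 CPM or more, a description without a test. It was 0.0485 for ATP2B4, against a median of 0.422 over all compared. RAPGEF1, an exchange factor for RAP1 (0.0542), MYO5B, a myosin of recycling endosomes (0.0728), CD276, the immune checkpoint protein B7-H3 (0.0773), and ARFGEF3 (0.0779) came next. None of these 5 lies on chromosome 7, which holds 662 of the 13927 tested protein-coding genes, so nothing is read from this. ATP2B4 had 21.4, 26.1 and 24.4 CPM after 8 h of docetaxel, 23.2, 22.0 and 21.0 after 24 h and 37.0, 42.8 and 40.6 in the combination, against 29.4, 32.8 and 29.9 in DMSO. As in EGFR, 8 h library A was the lowest of its group and combination library B the highest. Such agreement follows from choosing ATP2B4 by likeness over these same 12 libraries and adds nothing to it. Of EGFR's own neighbours the closest was SUMF2 with 0.25, at rank 949, and VOPP1 followed at 998. The distant FKBP9 was nearer at rank 509 (0.214). CHCHD2 ranked 7492 and CCT6A, at 0.673, ranked 8961 of 9450.

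Genes of the EGFR pathway outside the locus were taken as lists and are described by counts of called genes. The counts of each list stand beside the shares of all tested genes just given for the window, and its median log2 fold changes beside -0.02 at 8 h, 0.01 at 24 h and 0.01 in the combination for all genes. Of 7 EGFR ligands 6 were tested, and in the combination 5 of the 6 rose and 0 fell, with a median log2 fold change of 1.01. EGF had 2.11 ± 0.36 CPM in the combination and 0.614 ± 0.157 in DMSO (1.80 ± 0.26). BTC, or betacellulin, had 6.71 ± 0.452 against 3.29 ± 0.459 CPM in DMSO (1.02 ± 0.13). At 24 h of docetaxel 2 ligands rose. HBEGF had 9.55 ± 0.434 CPM at that time, against 5.06 ± 0.119 in DMSO (0.91 ± 0.10), and AREG, amphiregulin, 4.97 ± 0.546 against 1.32 ± 0.549 (1.92 ± 0.21). At 8 h 2 ligands fell, HBEGF (-0.41 ± 0.11) and BTC (-0.51 ± 0.15), and none rose. All of these but TGFA averaged under 10 CPM in each group. TGFA, at 37.6 ± 0.902 CPM in the combination and 36.1 ± 1.72 in DMSO, was not called in any of the 5 comparisons.

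The 3 other ERBB receptors all fell with EGFR under docetaxel. ERBB3, the partner that recruits PI3 kinase, had 42.6 ± 1.52 CPM at 8 h and 49.3 ± 1.88 at 24 h, against 67.0 ± 1.91 in DMSO (-0.65 ± 0.05 and -0.44 ± 0.05). ERBB2 had 71.0 ± 1.83 CPM at 8 h and 81.7 ± 6.35 at 24 h, against 101 ± 0.974 in DMSO (-0.50 ± 0.05 and -0.30 ± 0.05). In the combination they parted. ERBB4 fell to 7.03 ± 0.731 CPM, against 18.8 ± 1.04 in DMSO (-1.42 ± 0.09), ERBB3 rose to 75.3 ± 2.37 (0.17 ± 0.05) and ERBB2 was not called (-0.11 ± 0.05, adjusted p = 0.0651 by edgeR). With library totals ERBB2 was called lower in the combination (-0.15), so that 1 of the 3 was higher and 2 were lower.

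Among 11 adaptors and kinases downstream, 1 was called higher and 6 lower at 8 h, 1 and 6 after 24 h, and 0 and 7 in the combination. The medians were -0.14, -0.16 and -0.33 in that order. With library totals 10 of the 11 were lower at 8 h. HRAS was the gene that rose under docetaxel, with 85.9 ± 5.72 CPM at 8 h and 64.9 ± 4.43 at 24 h, against 49.9 ± 1.38 in DMSO (0.78 ± 0.06 and 0.38 ± 0.06). SOS1, which loads RAS with GTP, fell in all 3 comparisons (-0.61 ± 0.06, -0.27 ± 0.06 and -0.53 ± 0.06 in the order 8 h, 24 h, combination). In the combination MAP2K1, or MEK1, had 42.3 ± 0.948 CPM against 64.2 ± 0.690 in DMSO (-0.60 ± 0.05).

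Of 7 brakes on EGFR signalling 6 fell at 8 h of docetaxel and 0 rose. At 24 h 3 rose and 2 fell, and in the combination 2 rose and 2 fell. The medians were -0.34 at 8 h, 0.15 at 24 h and -0.03 in the combination. The call of SPRY2 at 24 h (0.15) was lost with library totals, DESeq2 and the authors' size factors (adjusted p = 0.117, 0.0804 and 0.0572), which leaves 2 that rose. LRIG1, a membrane protein that promotes loss of EGFR, had 49.7 ± 5.17 CPM at 8 h, 52.3 ± 1.36 after 24 h and 45.6 ± 1.85 in the combination, against 87.5 ± 2.29 in DMSO, and fell in all 3 (-0.82 ± 0.06, -0.74 ± 0.06 and -0.94 ± 0.06). DUSP6, the phosphatase of ERK, had 3.36 ± 0.658 CPM at 8 h, 7.70 ± 0.795 after 24 h and 12.8 ± 0.610 in the combination, against 4.89 ± 0.229 in DMSO. It fell at 8 h (-0.54 ± 0.13) and rose at 24 h (0.66 ± 0.12) and in the combination (1.39 ± 0.11). SPRY2, an antagonist of receptor kinase signalling, rose in the combination (0.69 ± 0.06), and CBL, the ubiquitin ligase of EGFR, fell in all 3 (-0.37 ± 0.08, -0.22 ± 0.08 and -0.44 ± 0.08).

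The partners of the neighbours' proteins were examined in the same way. CCT6A went the way of most TRiC genes listed. Of 9 genes 8 rose and 0 fell after 8 h of docetaxel, 5 rose and 0 fell after 24 h, and 8 fell in the combination, with medians of 0.38, 0.14 and -0.37. CCT6B, a form abundant in testis, was the gene that rose there (0.86), at 2.94 CPM against 1.61 in DMSO. TCP1 had 465 ± 9.52 CPM at 8 h, 363 ± 9.76 after 24 h and 237 ± 14.8 in the combination, against 319 ± 4.55 in DMSO (0.54 ± 0.05, 0.19 ± 0.05 and -0.43 ± 0.05). With library totals, 7 of the 9 rose at 8 h, CCT4 was not called (0.03) and CCT6B was called lower, and under DESeq2 7 rose at 24 h. CCT2 (0.38 ± 0.05, 0.14 ± 0.05 and -0.51 ± 0.05) and CCT5 (0.34 ± 0.05, 0.11 ± 0.05 and -0.53 ± 0.05) followed the same order of treatments, CCT5 without a call at 24 h. The list includes CCT6A itself.

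SEC61G did not move with its whole translocon list. Of 6 genes 3 rose and 2 fell at 8 h, 4 and 1 after 24 h, and 2 and 3 in the combination, with medians of 0.13, 0.25 and -0.13. With library totals SEC62 lost its calls at 8 h (-0.01, in place of 0.14) and in the combination (0.09, in place of 0.13). SEC61B, the beta subunit, rose with SEC61G under docetaxel (0.48 ± 0.06 at 8 h and 0.42 ± 0.06 at 24 h) but not in the combination (0.02 ± 0.06). SEC61A1, which forms the pore, fell in all 3 comparisons (-0.12 ± 0.05, -0.26 ± 0.05 and -0.29 ± 0.05), the first of them without a call under the authors' size factors. SEC63 fell at 8 h (-0.11 ± 0.05), again not under those factors, and in the combination (-0.45 ± 0.05), with 0.02 ± 0.05 at 24 h. Of the 6 FKBP isomerases of the endoplasmic reticulum, FKBP9 included, 2 rose and 3 fell at 8 h, 2 and 1 after 24 h, and 3 and 1 in the combination, with medians of -0.17, 0.10 and 0.36. FKBP2 rose in all 3, with 124 ± 6.71 CPM at 8 h, 116 ± 10.9 after 24 h and 144 ± 10.8 in the combination, against 90.1 ± 1.86 in DMSO. FKBP14 fell at 8 h (-0.19 ± 0.07, not called by DESeq2, adjusted p = 0.074) and in the combination (-0.47 ± 0.07), and FKBP7 fell at 8 h (-0.83 ± 0.20) and rose in the combination (0.67 ± 0.17). FKBP11 lost its call at 8 h with library totals (0.37 with TMM factors, 0.21 with totals) and FKBP10 its call in the combination under DESeq2 (1.29 by edgeR, adjusted p = 0.117 by DESeq2).

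Paralogues of the members elsewhere in the genome were also listed. Of the 7, 1 was called higher and 4 lower at 8 h, 2 and 2 after 24 h, and 3 and 1 in the combination, with medians of -0.31, -0.15 and 0.02. With library totals 5 were lower at 8 h, 4 lower at 24 h and 2 higher in the combination, and with DESeq2 1 was higher at 24 h. CHCHD10, the close relative of CHCHD2, had 115 ± 12.9 CPM at 8 h, 85.4 ± 8.38 after 24 h and 56.8 ± 2.08 in the combination, against 72.7 ± 4.22 in DMSO (0.66 ± 0.07, 0.23 ± 0.07 and -0.36 ± 0.07). LANCL1 fell under docetaxel (-0.31 ± 0.06 at 8 h and -0.31 ± 0.05 at 24 h) and rose in the combination (0.17 ± 0.05, not called with library totals, adjusted p = 0.0541 by edgeR), while LANCL2 was higher at 8 h and lower in the combination. NIPSNAP1 fell at 8 h (-0.42 ± 0.04) and 24 h (-0.18 ± 0.04). SUMF1, the enzyme that activates sulfatases, rose in the combination (0.40 ± 0.07), as SUMF2 did, and fell at 8 h (-0.22 ± 0.07).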

How the data were processed

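Messenger RNA was measured in 12 libraries, 3 in each of 4 groups. The deposited tables hold whole counts per gene symbol, which the authors made from the reads. Per the submitters' processing notes the tools were fastp, HISAT2 2.0.5 and DESeq2, and the build was hg38. Nothing used here states the counter, the annotation or the strand setting. The authors also deposited a signal per gene, equal to the counts over a size factor of the library (0.829 to 1.386), used only for an alternative scaling. Symbols were matched to GENCODE release 29 (56923 of 58735 matched once), and repeated symbols (1745) were kept as separate entries.

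All genes were fitted together with edgeR 4.0.16 in R 4.3.3 (filterByExpr with a minimum count of 10, TMM factors 0.917 to 1.05, a mean per group, 8 residual degrees of freedom, two-sided quasi-likelihood test, Benjamini-Hochberg adjustment over 17780 genes), which was tested on simulated data. SEs are the size of the log2 fold change divided by the root of the F statistic. Shares and ratios were compared by exact permutation tests (scipy). Levels per kb use the union of exons. The members and lists were chosen with earlier results of these data known. Named were all members, genes within 2 Mb of EGFR of at least 5 CPM, up to 4 genes per list by smallest adjusted p, and the 5 genes most like EGFR. Single values of some list genes are not reported here. Library pairs within a group differed by more than sampling noise (chi-square per degree of freedom 3.24 to 16.2). Alternatives were library totals, the authors' size factors, DESeq2 1.42.0, no filter, the groups compared alone, a replicate block, no mitochondrial genes, summed FKBP9 pair, the longest transcript as length, and each library left out. PCR copies were not marked, so intervals and floors cover counting error only.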

Additional observations from a re-analysis of the deposited data

Results flagged for a closer look

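Between 24 h and 8 h of docetaxel, 5 genes differed in their distance from DMSO, by a direct test of the docetaxel times with edgeR. The log2 difference, 24 h minus 8 h, was -0.2278 for EGFR, -0.2366 for VOPP1, -0.2548 for LANCL2, -0.1488 for FKBP9 and -0.3043 for CCT6A, with adjusted p-values of at most 0.0249. LANCL2 was above DMSO at 8 h and not called at 24 h, and VOPP1 was not called at 8 h and below DMSO at 24 h. EGFR and FKBP9 were below DMSO at both times and CCT6A above at both. The differences of EGFR and FKBP9 did not pass with library totals as the scaling (-0.10, adjusted p = 0.346, and -0.02, adjusted p = 0.807, by edgeR). No vehicle library was labelled as collected at 8 h, so both times were set against the same DMSO libraries.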

How the results depend on the processing

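Of 955 log2 fold changes of members recomputed under alternatives, 917 kept their side of the threshold, with the direction unchanged wherever there was a call. A further 14 kept the direction and lost the call, 24 gained a call and 0 reversed after a call. Values without a call could change sign and still count among the 917. VOPP1 at 8 h, for example, went from 0.08 to -0.08 with library totals. Of 600 fold changes with a library left out, 579 kept their side of the threshold, again whatever the sign of values without a call. The 600 include runs without a library of a group not compared, which bears on the result only through the shared fit. The calls of EGFR, SEC61G, VOPP1, LANCL2, CCT6A and SUMF2 in the combination against DMSO, and those of EGFR, SEC61G, CCT6A and CHCHD2 at both docetaxel times, held under each alternative run. Between the docetaxel times the number of members called was 3 to 6 with a library left out, and SEC61G was called under DESeq2 (-0.18) and the authors' size factors (-0.18). With library totals VOPP1 at 8 h stood at -0.08, and SUMF2 (-0.18), NIPSNAP2 (-0.23) and FKBP9P1 (-0.36) were called lower there, and NIPSNAP2 was called higher at 24 h than at 8 h (0.15). Among shares and ratios, small differences changed sign with a library left out. These were the FKBP9P1 share of the pair at 8 h, -0.03 points as reported and -0.1595 to 0.08021, and its log2 ratio to EGFR at 8 h, 0.12 as reported and -0.0747 to 0.2530. EGFR ranked 93 of 17695 genes in DMSO per kb of exon and 108 by its longest transcript. Same-letter libraries correlated between -0.134 and 0.143 in their deviations from group means, with 1 of 18 pairs over 0.1. With 3 libraries a group, such values cannot show whether the letters mark a shared culture or day. A replicate block by letter gave 6, 6, 7, 6 and 8 members called in the 5 comparisons, beside 6, 6, 7, 5 and 8 without it. The order is 8 h, 24 h and the combination against DMSO, 24 h against 8 h, and the combination against 24 h. FKBP9P1 is counted in both comparisons with the combination, where its difference is a description with no test. The block added SEC61G between the docetaxel times (-0.16, adjusted p = 0.0446 by edgeR). The cause of these changes was not tested. FKBP9P1 outside the combination rests on 50 to 105 reads a library, which limits small differences there. With 3 libraries a group, the exact permutation test of a share or ratio could not go below p = 0.1.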
